A study of Mus musculus with 3 samples.

Results

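The genes of the cytosolic ribosomal proteins were examined in visceral white adipose tissue (VWAT) of mice. Members were all genes whose symbol on the array platform starts with Rpl or Rps, leaving out the Rps6k kinases, with at least 1 probe detected (detection p under 0.01) on at least 1 of 3 arrays. Of 65 symbols with such a name 57 passed, out of 10603 genes kept in all. They were 30 proteins of the large subunit, 20 of the small subunit, 5 paralogs (Rpl22l1, Rpl36al, Rpl7l1, Rps27l and Rps4l) and 2 proteins that share the name but are not parts of the ribosome (Rps19bp1, a protein that binds Rps19, and Rps23rg1, a retrogene that arose from Rps23). All 57 were detected on all 3 arrays.

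The ribosome is the particle that translates mRNA into protein. Its small subunit binds the mRNA and reads the codons, and its large subunit joins the amino acids and lets the new chain leave through a tunnel. The mRNAs of its proteins start with a run of pyrimidines, the 5′ terminal oligopyrimidine (TOP) tract. The kinase complex mTORC1, which rapamycin inhibits, controls how strongly TOP mRNAs are translated, through the RNA-binding protein Larp1 among others. The arrays measured the amount of mRNA and not its translation.

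All mice were C57BL/6JRj, and the labels give an age of 28 weeks for each group. HFD-Rapa mice were fed a high-fat diet with 60% of its calories from fat and received rapamycin into the abdomen (2 mg/kg) each week for 22 weeks. HFD-Ve mice had the same diet and vehicle injections. The chow group was lean; the labels call it a low-fat diet group given vehicle, whereas the methods call it regular chow. By the methods the diet began at 6 weeks of age and the injections 5 weeks later, which together with 22 weeks of injections goes past the labelled age. RNA of 5 mice was pooled for each array and there was 1 array per group, so no difference has a replicate check, no test across mice was possible, and the methods name male and female mice without saying which a pool held. The Y-linked gene Eif2s3y was detected on all arrays, with 10.04 on the HFD-Rapa, 10.44 on the HFD-Ve and 9.97 on the chow array, and Xist was not detected. The only measured error is the spread between different probes of the same gene.

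At a detection p under 0.01, 17966 of 45281 probes were detected on the HFD-Rapa array, 17561 on the HFD-Ve and 16951 on the chow array. The labelled tissue carried its defining markers: 9 of 10 adipocyte markers were measured, among them Adipoq, with a log2 signal of 13.84 on the HFD-Rapa, 14.34 on the HFD-Ve and 14.54 on the chow array. None of the 7 epididymis and testis markers and none of the 6 ovary and uterus markers with a probe named here were detected.

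The sequence at the transcription starts annotated in RefSeq (GRCm38.p6) was searched for a TOP tract. A promoter entry was matched for 42 of the 50 core proteins of both subunits. A C at an annotated start followed by at least 4 more pyrimidines (C or T on the sense strand) was found in 8 of these 42 (19.0%), in 459 of 17443 other genes (2.63%) and in 0 of 65 mitochondrial ribosomal proteins. These 8 are shown from 15 bases before the start to 15 from the start on, 5′ to 3′ on the sense strand, with the pyrimidine tract at the start in capitals, because the tract is the feature that the family is known to share. The last pair, Rpl13a and Rpl22l1, had the highest positive differences of all members for HFD-Rapa minus HFD-Ve, and has no pyrimidine at its annotated start.
Rps6, chr4:86857353-86857382, minus strand: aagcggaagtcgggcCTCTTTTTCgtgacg
Rps10, chr17:27635230-27635259, minus strand: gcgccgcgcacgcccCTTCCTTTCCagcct
Rps15a, chr7:118116133-118116162, minus strand: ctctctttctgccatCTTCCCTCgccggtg
Rps21, chr2:180257364-180257393, plus strand: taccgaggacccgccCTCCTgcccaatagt
Rpl28, chr7:4792950-4792979, plus strand: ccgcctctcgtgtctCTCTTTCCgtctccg
Rpl35, chr2:39005117-39005146, minus strand: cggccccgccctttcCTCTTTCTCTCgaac
Rpl38, chr11:114668565-114668594, plus strand: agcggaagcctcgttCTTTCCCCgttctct
Rplp2, chr7:141447636-141447665, plus strand: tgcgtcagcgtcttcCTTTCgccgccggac
Rpl13a, chr7:45128731-45128760, minus strand: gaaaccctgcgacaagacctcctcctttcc
Rpl22l1, chr3:28805493-28805522, plus strand: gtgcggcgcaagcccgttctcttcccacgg

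A tract that lies a few bases off the annotated start is missed by this count. A run of at least 8 pyrimidines was therefore sought anywhere from 20 bases before to 50 bases after the start. It was present in 32 of the 42 core members (76.2%), against 28.4% of other genes and 18 of 65 mitochondrial ribosomal proteins (27.7%). These 32 include the 8 members with the tract at the start, and also Rpl13a. HFD-Rapa minus HFD-Ve had a median of 0.35 on the log2 scale in the 8 members with the tract at the annotated start. It was 0.34 in the 34 without it there. Those 34 include members with the longer run, so this split does not separate members with a TOP tract from members without. For the longer run the medians were 0.39 in the 32 members with it and 0.28 in the 10 without. A match is a description of the letters and does not show that a tract is used.

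Ribosomal protein mRNAs of both subunits were higher on the HFD-Rapa array than on the HFD-Ve array. A log2 difference above 0 was found for 56 of 57 members, against 52.4% of all genes, and Rps4l was the exception. The median member was 0.32 higher on the log2 scale, or 1.25-fold (quartiles 0.25 and 0.44), and the median of all genes was 0.02. The shift was small per gene and shared by nearly all of them. 42 of 57 members were at least 1.2-fold higher, or 73.7%, against 24.4% of all genes. Past 1.5-fold only Rpl22l1, Rpl13a and Rpl34 were higher, against 8.54% of all genes, and Rps4l was lower, against 7.55% of all genes. With no background correction or with the authors' processed values 3 members were past 1.5-fold higher and 0 lower.

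The differences of both subunits were of similar size. All 30 large subunit proteins were higher on the HFD-Rapa array, with a median of 0.34 and a range of 0.06 to 0.72, and so were all 20 small subunit proteins, with a median of 0.35 and a range of 0.13 to 0.57. The signal of each array was summed after background correction over the 10603 genes kept, with the 1 probe used for each gene. Of this sum the 50 core proteins made up 5.29% on the HFD-Rapa, 4.16% on the HFD-Ve and 3.91% on the chow array. The large subunit held 3.01% of the HFD-Rapa, 2.37% of the HFD-Ve and 2.20% of the chow signal. The small subunit held 2.28%, 1.79% and 1.71% on the same arrays, and the HFD-Rapa share was thus 1.27 times the HFD-Ve share over both subunits. This quantity uses no normalization between arrays.

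**Figure D1:**
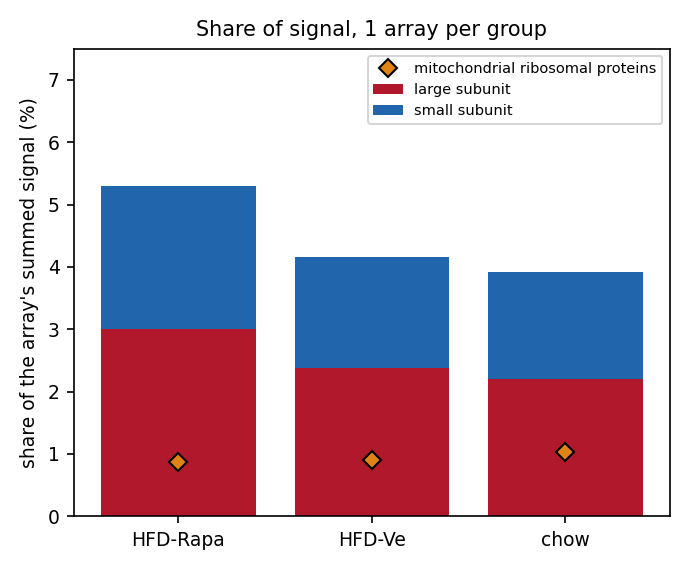
Share of the summed, background-corrected signal of the genes kept on each array (%), with 1 probe per gene and 1 array of pooled RNA per group. Bars from 0 show large (red) and small (blue) subunit proteins stacked, and orange diamonds show mitochondrial ribosomal proteins. The stacked share is 5.29% on the HFD-Rapa, 4.16% on the HFD-Ve and 3.91% on the chow array.

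Since most members have bright probes, other bright genes were set beside them. Of 449 other genes with a mean log2 signal of at least 12, 41.9% were higher on the HFD-Rapa than on the HFD-Ve array, with a median of −0.06. The 34 core members in that range had a median of 0.32, and the 16 dimmer core members one of 0.41. The dimmest core members, Rpl7a and Rps15a, differed by 0.06 and 0.18, and other dim genes were not set beside the dimmer members.

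**Figure D2:**
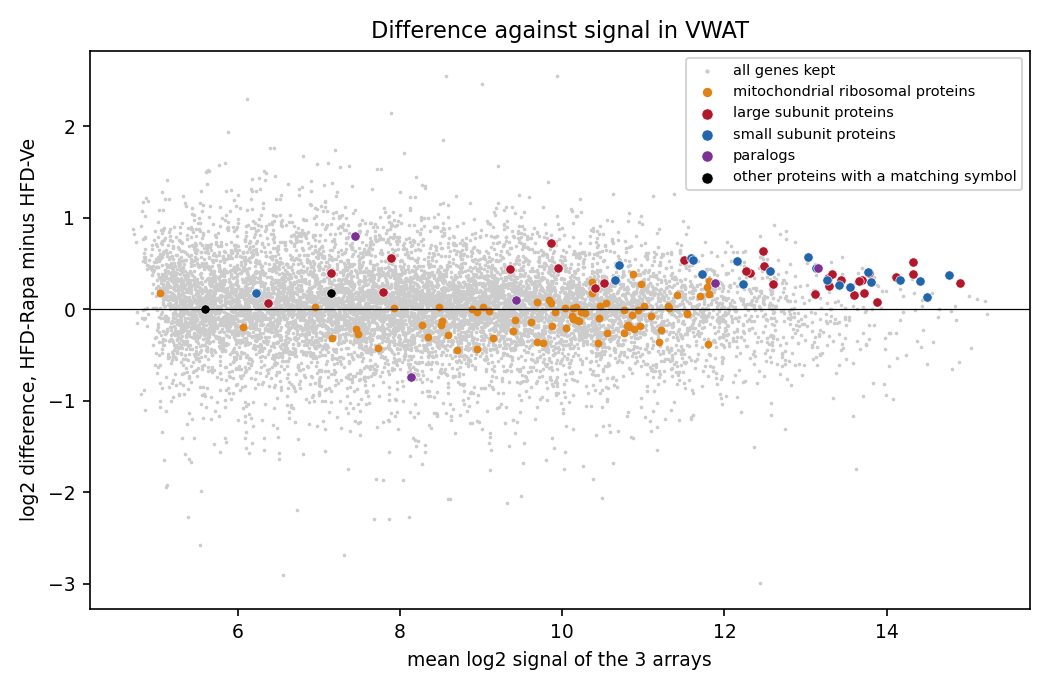
Log2 difference HFD-Rapa minus HFD-Ve (vertical axis) against the mean log2 signal of the 3 arrays (horizontal axis), 1 point per gene: all 10603 genes in grey, mitochondrial ribosomal proteins in orange, large subunit proteins in red, small subunit proteins in blue, paralogs in purple, other proteins with a matching symbol in black. All red and blue points lie above 0 and the only purple point below it is Rps4l.

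Among large subunit proteins, Rpl13a, which is also known as a part of a translational silencing complex in inflammation, had a log2 signal of 10.61 on the HFD-Rapa, 9.89 on the HFD-Ve and 9.09 on the chow array. It was 1.65-fold higher in HFD-Rapa than HFD-Ve. Rpl34 stood at 12.94 on the HFD-Rapa, 12.30 on the HFD-Ve and 12.19 on the chow array, so that most of its difference lay between the HFD-Rapa array and the others (1.56-fold against HFD-Ve). The P stalk is the arm of the large subunit that recruits the elongation factors. Its scaffold Rplp0 had 8.46 on the HFD-Rapa, 7.90 on the HFD-Ve and 7.31 on the chow array, a difference of 0.56 between HFD-Rapa and HFD-Ve. Its neighbour Rpl12 was 0.48 higher and the stalk protein Rplp1 0.38 higher. The other stalk protein, Rplp2, was nearly level, with 13.89 on the HFD-Rapa, 13.81 on the HFD-Ve and 13.96 on the chow array.

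The proteins that line the peptide tunnel and its exit were alike among themselves. 6 of 8 were measured, namely Rpl4, Rpl19, Rpl26, Rpl31, Rpl35 and Rpl39, and each was at least 1.2-fold higher on the HFD-Rapa than on the HFD-Ve array (0.32 to 0.54, median 0.39). Rpl19 was the highest of them at 0.54, and the short tunnel protein Rpl39 the lowest at 0.32. Rpl3, which lies close to the peptidyl transferase centre, was 0.31 higher, with 13.92 on the HFD-Rapa, 13.61 on the HFD-Ve and 13.46 on the chow array. Rpl38, known in mice for its part in the translation of Hox mRNAs, was 0.51 higher. Rpl32 was 0.25 and Rpl22 0.23 higher. The smallest differences of the subunit were those of Rpl7a (0.06), Rplp2 (0.08) and Rpl27a and Rpl28 (both 0.16).

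Among small subunit proteins, Rps26, which sits at the mRNA exit, had 13.49 on the HFD-Rapa, 12.92 on the HFD-Ve and 12.67 on the chow array, a difference of 0.57 between HFD-Rapa and HFD-Ve. Rps15, whose tail reaches towards the decoding site, had 11.94 on the HFD-Rapa, 11.38 on the HFD-Ve and 11.43 on the chow array, a difference of 0.56. In both genes the HFD-Rapa array was the high one. Rps3, at the mRNA entry, was 0.45 higher and Rps2, its neighbour there, 0.13 higher, the smallest difference in the subunit. The beak proteins Rps10 and Rps12 were 0.53 and 0.31 higher. Rps6, the protein that S6 kinases phosphorylate downstream of mTORC1, had 11.95 on the HFD-Rapa, 11.56 on the HFD-Ve and 11.66 on the chow array, so that its mRNA was 0.39 higher than on the HFD-Ve array. Rps19 and Rps14, which in humans are linked to anaemia through loss of a gene copy, were 0.40 and 0.30 higher, and the X-linked Rps4x was 0.24 higher.

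Of the 5 paralogs, 4 were higher on the HFD-Rapa than on the HFD-Ve array (median 0.29), against 52.4% of all genes, and Rps4l was lower. Rpl22l1, the paralog of Rpl22, had 8.45 on the HFD-Rapa, 7.65 on the HFD-Ve and 6.22 on the chow array, the largest difference of all members in each of the 3 comparisons (1.74-fold, HFD-Rapa against HFD-Ve). Rpl22 itself stood at 10.47 on the HFD-Rapa, 10.23 on the HFD-Ve and 10.51 on the chow array. The values of the paralog thus fell in a clear order of arrays and those of Rpl22 did not. Rps4l, a transcribed pseudogene in the RefSeq table on chromosome 6, had 7.71 on the HFD-Rapa, 8.45 on the HFD-Ve and 8.26 on the chow array, and was 1.67-fold lower in HFD-Rapa than HFD-Ve. Rps27l, a target of p53, was 0.44 higher, Rpl36al 0.29 higher and Rpl7l1 0.10 higher in HFD-Rapa than HFD-Ve. The non-ribosomal Rps23rg1 was level at 5.55 on both high-fat arrays and 5.68 on the chow array, and Rps19bp1 was 0.17 higher in HFD-Rapa than HFD-Ve.

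**Figure D3:**
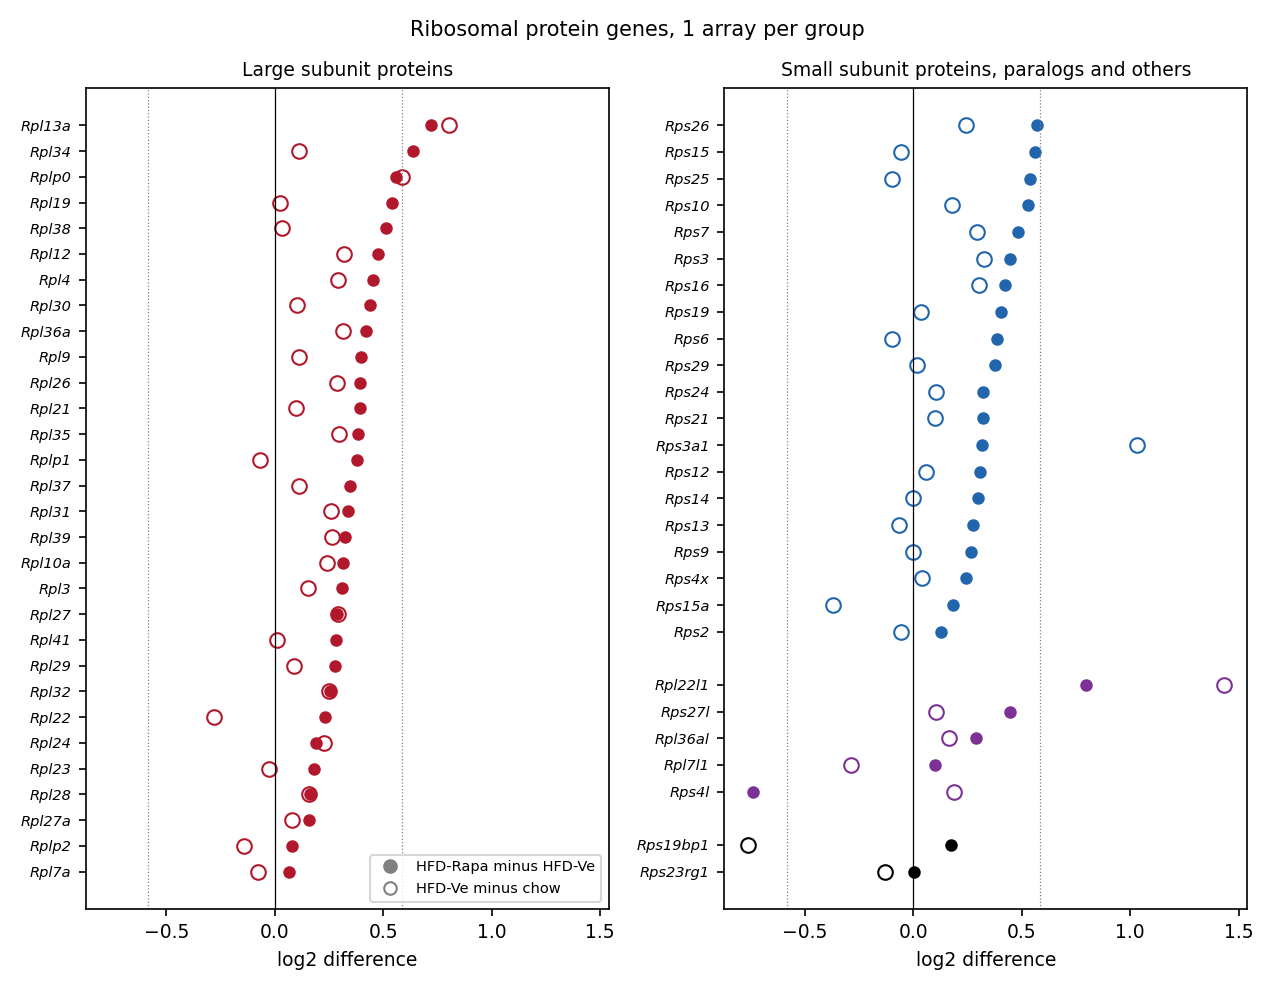
Log2 differences of each member, HFD-Rapa minus HFD-Ve (filled) and HFD-Ve minus chow (open), for large subunit proteins (left panel) and small subunit proteins, paralogs and other proteins (right panel), 1 array per group; dotted lines mark 1.5-fold. Filled points run between 0.06 and 0.72 in the large and between 0.13 and 0.57 in the small subunit, while open points lie on both sides of 0.

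The diet comparison, HFD-Ve against chow, showed a smaller difference after quantile normalization. A value above 0 was found for 41 of 57 members, against 45.2% of all genes, with a median of 0.10 for the members and −0.05 for all genes. The large subunit was higher in 25 of 30 members (median 0.13) and the small subunit in 12 of 20 (median 0.04, and −0.021 when arrays were scaled to the 75th percentile). The number of members above 0 depended on the scaling. It was 36 of 57 with the 75th percentile, where the median of all genes was −0.09. With median scaling it was 52 of 57, where the median of all genes was 0.15. Under median scaling 53 of 57 were higher on the HFD-Rapa than on the HFD-Ve array, with −0.09 as the median of all genes. The large subunit median was then 0.26 for HFD-Rapa minus HFD-Ve and 0.33 for HFD-Ve minus chow. The share of all genes above 0 is not given for these scalings. Past 1.5-fold were 4 members on the higher side, against 15.1% of all genes, and 1 on the lower side, against 11.7% of all genes. They were Rpl22l1 (2.69-fold), Rps3a1 (2.04-fold), Rpl13a (1.75-fold) and Rplp0 (0.59 on the log2 scale), and on the lower side Rps19bp1, with 7.01 on the HFD-Rapa, 6.83 on the HFD-Ve and 7.60 on the chow array. Under median scaling of the arrays 4 members were past 1.5-fold higher and 0 lower in this comparison.

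Rps3a1, a small subunit protein near the mRNA exit, showed the diet difference best within the core: 11.21 on the HFD-Rapa and 10.89 on the HFD-Ve array against 9.86 on the chow array. Both high-fat arrays were high and the chow array stood apart. On its brightest probe Rps3 had 13.53 on the HFD-Rapa, 13.09 on the HFD-Ve and 12.76 on the chow array, with the arrays about evenly spaced. A second Rps3 probe had 12.56, 12.15 and 11.47 in the same order. Its differences were 0.41 for HFD-Rapa minus HFD-Ve and 0.68 for HFD-Ve minus chow. Rps15a was at the other end of the core, with a difference of −0.37 and 6.22 on the HFD-Rapa, 6.04 on the HFD-Ve and 6.41 on the chow array. Rpl7l1, Rpl22 and Rplp2 were lower in HFD-Ve than chow as well, with log2 differences of −0.29, −0.28 and −0.14. The 6 tunnel and exit proteins were all higher in HFD-Ve than chow, by 0.02 to 0.30.

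HFD-Rapa against chow uses the same arrays as the previous comparisons and holds the sum of their differences. In it 49 of 57 members were above 0, against 47.6% of all genes, with a median of 0.46 for the members and −0.04 for all genes. The large subunit was higher in 27 of 30 members (median 0.52) and the small subunit in 19 of 20 (median 0.42). Past 1.5-fold were 17 members on the higher side, against 20.5% of all genes, and 1 on the lower side, Rps19bp1 (−0.59), against 19.5% of all genes. Median scaling gave 26 higher and 0 lower, and the lower call was also lost with the authors' processed values, with no background correction and with an offset of 50. Rpl22l1 was 4.68-fold, Rpl13a 2.87-fold, Rps3a1 2.54-fold and Rplp0 2.21-fold higher. The other 13 were between 0.59 and 0.81 on the log2 scale: Rps26, Rpl12, Rps3, Rps7, Rpl34, Rpl4, Rpl36a, Rps16, Rps10, Rpl35, Rpl26, Rpl31 and Rpl39.

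Across the 3 arrays the HFD-Rapa array was the highest for 49 of 57 members, against 38.1% of all genes. The order chow, HFD-Ve, HFD-Rapa, low to high, was followed by 40 members, against 28.5% of all genes, 37 of them core proteins. The members lie on 18 chromosomes, 10 of them on chromosome 7 and 3 on X (Rpl36a, Rpl39 and Rps4x), and the X-linked members were 0.42, 0.32 and 0.24 higher in HFD-Rapa than HFD-Ve.

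Different probes of the same gene give the only measure of error. 18 members had several detected probes, 43 in all, and between probes of a gene the HFD-Rapa minus HFD-Ve difference had a pooled SD of 0.26. Over these 18 members the median SD was 0.08 and the highest 0.77. The median member difference of 0.32 is little more than the pooled SD. This SD compares probes on the same arrays and is not a replicate error. No single member, of average or larger size, can be told from 0 by it. Over all 82 detected probes of the members, 79 were higher on the HFD-Rapa than on the HFD-Ve array (median 0.34). With the mean of a gene's detected probes in place of the brightest, 55 of 57 members were higher. For Rpl31 the brightest probe gave 0.34 and the others 0.87 and 0.91. Rps19 had probes of opposite sign, with 0.40 for its brightest probe (14.05 on the HFD-Rapa against 13.65 on the HFD-Ve array) and −0.68 for the other (6.91 on the HFD-Rapa against 7.59 on the HFD-Ve array). Rps24 gave 0.32 for its brightest probe and 1.05 and −0.01 for the others, and between HFD-Ve and chow its probes passed 1.5-fold in opposite directions (0.73 and −0.91). In HFD-Ve against chow the pooled probe SD of a gene was 0.38, above the median member difference of 0.10. There 6 of the 18 members had probes of opposite sign: Rpl23, Rpl27a, Rpl29, Rps19, Rps2 and Rps24. In HFD-Rapa against chow the pooled probe SD was 0.58, above the median member difference of 0.46. Probes of opposite sign were found there in 4 members: Rpl29, Rps13, Rps19 and Rps24. Ribosomal protein genes have many processed pseudogenes, and signal from such copies cannot be separated from that of the gene itself.

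**Figure D4:**
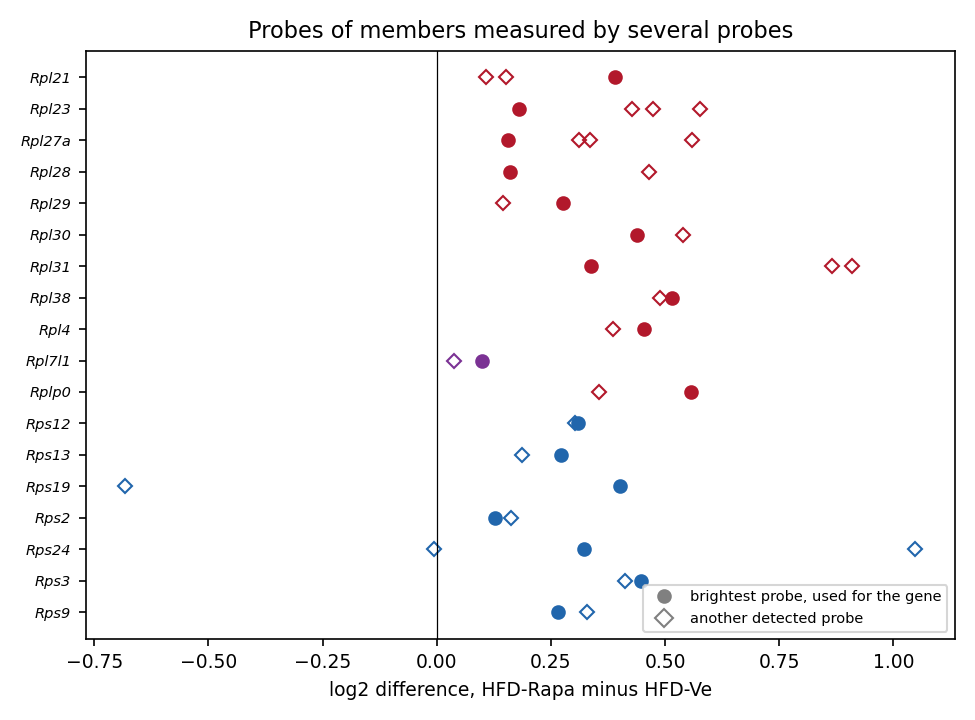
Log2 difference HFD-Rapa minus HFD-Ve of each detected probe of the 18 members with several probes: filled circles for the brightest probe, which stood for the gene, and open diamonds for the others, in red for large and blue for small subunit proteins and purple for a paralog. Only the second probe of Rps19 (−0.68) and 1 probe of Rps24 (−0.01) lie below 0.

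8 genes with a matching symbol were not detected on any array and are not members: Rpl14, Rpl17, Rpl6, Rpl3l, Rpl39l, Rps20, Rps23 and Rpsa. The lowest detection p among them was 0.0235, for Rpl14, and the member closest to the limit was Rps23rg1, with 0.00427 on its best array. Of 77 core proteins in the subunit lists, 56 had a probe named here. No probe named here covered Rpl5 and Rpl11, which form a complex with the small ribosomal RNA of the large subunit and bind Mdm2, nor Rpl10, Rps18, Rps27 and Rps27a, so these were not analysed.

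The mitochondrial ribosomal proteins, which build the separate ribosome of the mitochondrion, had medians below 0 where those of the cytosolic ones were above it. Of 73 measured, 26 were higher on the HFD-Rapa than on the HFD-Ve array (median −0.07), against 52.4% of all genes. Only 8 were higher in HFD-Ve than chow (median −0.27), against 45.2% of all genes, and 11 in HFD-Rapa than in chow (median −0.34), against 47.6% of all genes. Against chow, 16 of the 73 were at least 1.5-fold lower in HFD-Rapa, a share near the 19.5% of all genes. Their share of the summed signal was 0.877% on the HFD-Rapa, 0.903% on the HFD-Ve and 1.03% on the chow array.

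Other mRNAs known to carry a TOP tract had a median between those of the ribosomal proteins and of all genes in HFD-Rapa against HFD-Ve. Of 18 measured, 13 were higher on the HFD-Rapa than on the HFD-Ve array, against 52.4% of all genes, with a median of 0.14. Only 1 passed 1.5-fold, against 8.54% of all genes. That gene was Tpt1, a conserved growth-related protein, with 7.61 on the HFD-Rapa, 6.98 on the HFD-Ve and 6.26 on the chow array. The elongation factor Eef1a1 was 0.14 higher, the nucleolar chaperone Npm1 was 0.32 higher, and the elongation factor Eef2 (−0.02) and the poly(A)-binding protein Pabpc1 (−0.05) were nearly level. In HFD-Ve against chow the list had a median of 0.11, close to the 0.10 of the ribosomal protein genes, with 4 of 18 past 1.5-fold on the higher side, against 15.1% of all genes, Pabpc1 among them (0.71). In HFD-Rapa against chow its median was 0.27 with 6 of 18 past 1.5-fold higher, against 20.5% of all genes.

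Of 33 measured genes of ribosome biogenesis, 25 were higher on the HFD-Rapa than on the HFD-Ve array (median 0.13), against 52.4% of all genes. Past 1.5-fold were 2, both higher, against 8.54% of all genes. Nop58, a core protein of the box C/D particles that guide methylation of ribosomal RNA, had 10.11 on the HFD-Rapa, 9.39 on the HFD-Ve and 9.51 on the chow array. Eif6, which keeps the large subunit from joining too early, had 11.03, 10.40 and 10.50 in the same order of arrays. Both were high on the HFD-Rapa array alone. Nucleolin (Ncl) was 0.44 higher in HFD-Rapa than HFD-Ve, and Polr1b, a subunit of the polymerase that makes ribosomal RNA, differed by −0.13. In HFD-Ve against chow the list's median was −0.10. Only 1 gene was past 1.5-fold, against 15.1% of all genes: Tsr1 (1.02), which helps to mature the small subunit.

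**Figure D5:**
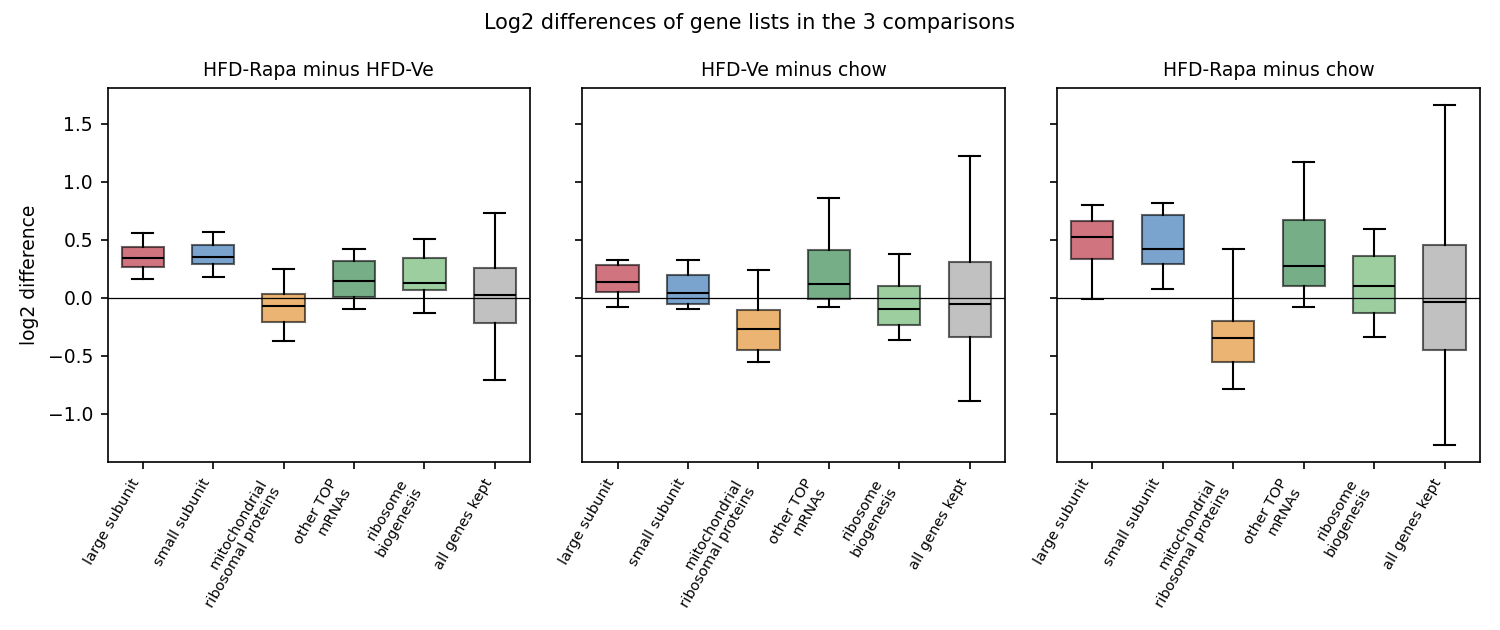
Log2 differences of large and small subunit proteins, mitochondrial ribosomal proteins, other TOP mRNAs, ribosome biogenesis genes and all genes kept, in the 3 comparisons (panels, 1 array per group); boxes span the quartiles with the median as a line, and whiskers the 5th to 95th percentile of genes. Between HFD-Rapa and HFD-Ve the subunit medians are 0.34 and 0.35 and the mitochondrial median is −0.07.

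Genes of the mTORC1 pathway towards the ribosome were mostly lower on the HFD-Rapa than on the HFD-Ve array. Of 14 measured, 2 were higher, against 52.4% of all genes, with a median of −0.14. In HFD-Ve against chow 8 of 14 were higher (median 0.07), against 45.2% of all genes. In HFD-Rapa against chow 5 of 14 were higher (median −0.13), against 47.6% of all genes. Between HFD-Rapa and HFD-Ve only Larp1, which binds TOP mRNAs, was past 1.5-fold, on the lower side, against 7.55% of all genes. Larp1 had 8.09 on the HFD-Rapa, 8.70 on the HFD-Ve and 8.35 on the chow array. Mtor had 8.52 on the HFD-Rapa, 9.07 on the HFD-Ve and 9.61 on the chow array, the reverse order of most ribosomal proteins. The translational repressor Eif4ebp1 differed by −0.54 between HFD-Rapa and HFD-Ve and by −0.51 between HFD-Ve and chow. Its relative Eif4ebp2 was level between the high-fat arrays (0.03) and differed by −1.03 between HFD-Ve and chow. Rptor, the defining subunit of mTORC1, differed by −0.10 between HFD-Rapa and HFD-Ve, and Tsc1, which restrains the complex, had 6.53 on the HFD-Rapa and 6.40 on the HFD-Ve array and was not detected on the chow array. Myc and Rps6kb2 were not detected, and Rps6kb1 had no probe named here.

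Markers of the cell types in fat also differed between the arrays. For comparison, of all genes 52.4% were higher in HFD-Rapa than HFD-Ve, 8.54% at least 1.5-fold higher and 7.55% at least 1.5-fold lower. In bulk tissue, fewer cells of a type and less RNA per cell cannot be told apart. Of 9 measured adipocyte markers none was higher on the HFD-Rapa than on the HFD-Ve array and 4 were at least 1.5-fold lower (median −0.55), with a summed signal of 72220 on the HFD-Rapa, 93060 on the HFD-Ve and 98190 on the chow array. All 9 measured of 10 macrophage markers were higher in HFD-Rapa than HFD-Ve, 4 past 1.5-fold (median 0.51), and their summed signal was 51020 on the HFD-Rapa, 35750 on the HFD-Ve and 12630 on the chow array. T cell markers were measured for 5 of 9 genes, of which 4 were past 1.5-fold higher (median 0.97), with sums of 822.4, 433.8 and 408.3 on the HFD-Rapa, HFD-Ve and chow arrays. Single markers departed from these sums between HFD-Ve and chow, where 4 of 9 adipocyte markers were higher and the T cell genes Cd3e (−0.11) and Cd2 (−0.28) were lower in HFD-Ve.

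B cell markers were measured for 3 of 7 genes, 2 of them past 1.5-fold higher in HFD-Rapa than HFD-Ve, with sums of 698.7 on the HFD-Rapa, 354.7 on the HFD-Ve and 222.0 on the chow array, while Ms4a1 and Pax5 were not detected. Endothelial markers had 4 of 5 measured genes past 1.5-fold lower (median −0.96) in HFD-Rapa than HFD-Ve, against 7.55% of all genes. Mesothelial markers had 4 of 5 past 1.5-fold higher (median 0.77), against 8.54% of all genes. Their sums were 1676 on the HFD-Rapa, 3059 on the HFD-Ve and 3255 on the chow array for endothelial markers, and 4986, 3069 and 5851 in the same order for mesothelial markers. The mesothelial sum was lowest on the HFD-Ve array. Stromal markers were measured for all 8 genes, 1 past 1.5-fold higher (median 0.20), with sums of 39830 on the HFD-Rapa, 34830 on the HFD-Ve and 26230 on the chow array. The part of the makeup of the tissue in the ribosomal protein differences was not tested.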

How the data were processed

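The authors deposited an unnormalized signal intensity per probe, exported from GenomeStudio (submitters' processing notes), and beside it a deposited detection p-value from the array's negative controls. A second deposited table holds processed intensity values on a linear scale, with a normalization that is not given in the sources used here. It served as an alternative only. The methods also name GeneSpring for the analysis.

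In R 4.3.3, limma 3.58.1 inferred the background from the detection p-values, corrected it with an offset of 16 and, after log2, applied quantile normalization. The filter on dim probes (detection p under 0.01 on 1 or more arrays) left 18954 of 45281, and each gene was represented by its brightest probe left. Of the probes in the platform annotation 34885 had 1 gene symbol and 18 several, which named none, while 10396 probes have no name here. All 57 members matched RefSeq by symbol. Promoter sequences are those of the RefSeq table (GRCm38.p6), searched on the sense strand. The share of summed signal was taken over the 1 probe used for each gene kept, before normalization between arrays. Medians and counts were computed in Python 3.11.15 with numpy 2.4.6 and pandas 2.3.3, and drawn with matplotlib 3.10.9. The steps were checked on simulated data.

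With 1 array per group no test was run. Precision is limited by the number of arrays, and 1.5-fold serves as a mark of size. The members and gene lists were chosen with earlier results of these data known. Named were the 5 highest and 5 lowest members of each comparison, members past 1.5-fold, and members that are not core subunit proteins. Members with probes past 1.5-fold in opposite directions, a fixed set of well-known members and fixed genes of the pathway lists were named too. So were genes of those lists past 1.5-fold between HFD-Rapa and HFD-Ve. The alternatives were other background and normalization settings, other detection filters, the authors' processed values, the mean of a gene's probes and other fold thresholds.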

Additional observations from a re-analysis of the deposited data

How the results depend on the processing

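No paired analysis was possible because each group had 1 array and no replicates. The subunit medians kept their direction under every alternative except 1. Between HFD-Rapa and HFD-Ve the large and the small subunit median each ranged from 0.26 to 0.38 over the processing alternatives. Taken relative to other bright genes, they were 0.40 (large) and 0.41 (small). For HFD-Rapa against chow the ranges were 0.49 to 0.63 for the large and 0.38 to 0.51 for the small subunit, and for HFD-Ve against chow 0.08 to 0.33 for the large subunit. The small subunit median of HFD-Ve against chow was −0.021 with scaling to the 75th percentile, against 0.04, and the cause was not tested. Members higher in HFD-Rapa than HFD-Ve numbered 53 to 64, in HFD-Ve than chow 36 to 52 and in HFD-Rapa than chow 47 to 56, with the total changing with the detection filter. Members past the fold threshold in either direction depended on it. Between HFD-Rapa and HFD-Ve they were 4 at 1.5-fold, 43 at 1.2-fold and 0 at 2-fold. For HFD-Rapa against chow they were 18 at 1.5-fold, 47 at 1.2-fold and 4 at 2-fold. For HFD-Ve against chow they were 5 at 1.5-fold, 18 at 1.2-fold and 2 at 2-fold, and at 1.5-fold 3 with the authors' processed values and 3 with no background correction. Median scaling moved the median of all genes to 0.15 for HFD-Ve against chow and to −0.09 for HFD-Rapa against HFD-Ve. The subunit medians then were 0.33 (large) and 0.23 (small) for HFD-Ve against chow, and 0.26 for both between HFD-Rapa and HFD-Ve. Signal over background limits the dimmest members: on the HFD-Rapa array Rpl7a and Rps15a had raw signals of 162.4 and 153.2, where the median probe had 102.5.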
